A study of Drosophila melanogaster with 32 samples.

Results

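The Toll pathway genes described here are 10 genes of Drosophila melanogaster: spz, Tl, tub, pll, Myd88, cact, dl, Dif, psh and SPE. They were taken as the probe sets that the platform annotation assigns to exactly 1 of these genes, which gave 13 probe sets of the 18769 tested. The genes Tl, cact and dl each had a pair of probe sets, called brighter and dimmer after their mean signal. The remaining 7 genes had 1 probe set each.

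Whole adult mated females were measured on 32 Affymetrix expression arrays, with values on the log2 scale. The flies came from 8 populations founded from the outbred laboratory stock LHM, and had been held for 46 generations under 1 of 2 regimes: a single mating in each generation, or monogamy, in Mono1 to Mono4, and the stock's standard promiscuous protocol in Prom1 to Prom4. Females of each population mated either within it or with males from the like-numbered population of the opposite regime, and were frozen 6 h later. The resulting 16 crosses each had an array in both batches. The 4 groups, named female regime first and male regime second, were M.M (monogamous females with monogamous males), M.P (monogamous females with promiscuous males), P.M (promiscuous females with monogamous males) and P.P (promiscuous females with promiscuous males). Each group held 8 arrays, all groups shared the LHM background, and all females were mated. The design asks whether expression after mating depended on the mating regime under which the female, or her mate, had evolved.

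Toll signalling works in fruit flies both in dorsal-ventral patterning of the embryo, from components the mother loads into the egg, and in the adult immune response to fungi and Gram-positive bacteria. Proteases cleave the ligand Spätzle (spz), which binds the receptor Toll (Tl). The adaptors Myd88 and Tube (tub) and the kinase Pelle (pll) pass the signal on, the inhibitor Cactus (cact) is degraded, and the transcription factors Dorsal (dl) and Dif enter the nucleus. Much of this chain acts on proteins, which these RNA measurements do not follow.

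The samples had the markers of whole females. The mean of 3 yolk protein genes lay between 14.5 and 14.6 on the log2 scale in all 8 populations, and the mean of 7 male accessory gland and testis markers lay between 3.79 and 3.86. The control transcripts for RNA quality had a larger gap between 3' and 5' signal in batch 2, at 2.91 against 1.91 for actin, 1.54 against 1.15 for GAPDH and 3.02 against 2.09 for eIF-4a. In whole flies, fewer cells of a type and less RNA per cell cannot be told apart.

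**Figure D1:**
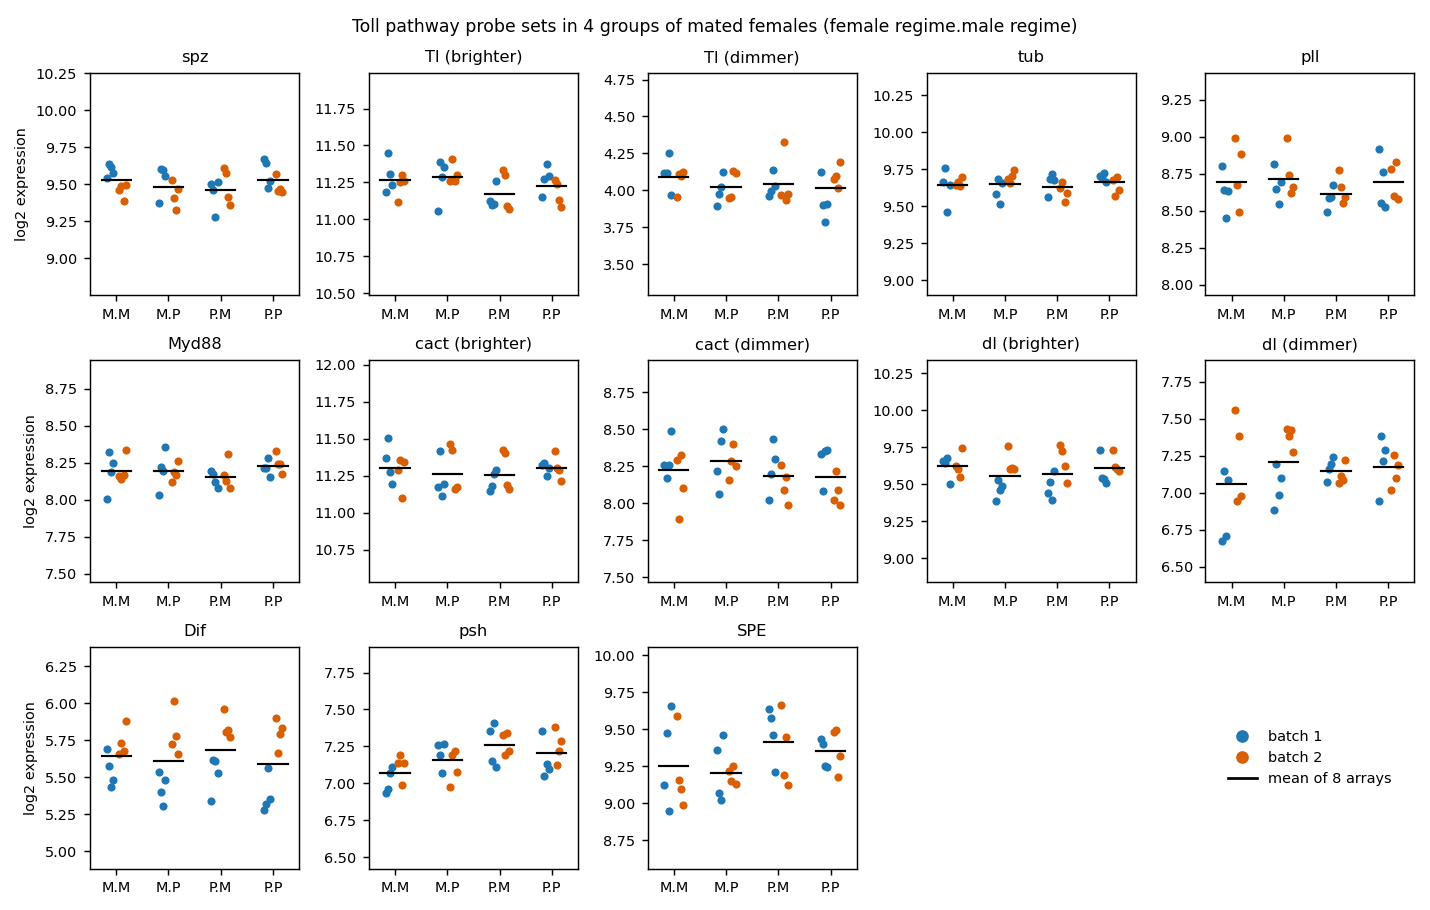
Log2 expression of the 13 Toll pathway probe sets (vertical axis, each panel spanning the same width of log2 units) in the 4 groups (horizontal axis, female regime before the point and male regime after it). Points are arrays, coloured by batch, and lines are means of 8 arrays; the groups overlap in every panel, and Dif lies higher in batch 2.

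The probe sets are taken in the order in which their genes act. Among the proteases upstream of the ligand, SPE, which cleaves Spätzle, ranged from 8.95 to 9.67 over the 32 arrays with a median of 9.25. The probe set of psh, a protease activated by microbial proteases, ranged from 6.94 to 7.41 with a median of 7.17. For the ligand, spz ranged from 9.28 to 9.67 with a median of 9.50. The receptor was read by a probe set for Tl between 11.06 and 11.45 (brighter) and by one between 3.79 and 4.32 (dimmer). These 2 differ in signal but report on the same gene, so a level of a probe set does not by itself give the abundance of a transcript.

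Among the genes acting inside the cell, tub ranged from 9.46 to 9.76, Myd88 from 8.01 to 8.36 and pll from 8.45 to 8.99. The inhibitor cact ranged from 11.10 to 11.51 on its brighter and from 7.89 to 8.50 on its dimmer probe set. Of the transcription factors, dl ranged from 9.39 to 9.76 (brighter) and from 6.68 to 7.56 (dimmer), and Dif from 5.28 to 6.02. The residual SD between arrays of the same cross, after removing batch, was lowest for Myd88 at 0.07 and highest for dl (dimmer) at 0.23. Its median over the 13 probe sets was 0.10, against 0.12 over all probe sets tested.

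The first comparison set females of the promiscuous populations against females of the monogamous populations, with the 8 population means as replicates. None of the 13 Toll pathway probe sets differed at an adjusted p under 0.05 in limma, and the same held for all 18769 probe sets (0%). At an unadjusted p under 0.05 there was 1 Toll pathway probe set, psh, against 1312 probe sets in all (6.99%). No Toll pathway probe set had population means that did not overlap between regimes, against 765 probe sets in all (4.08%). The median absolute difference was 0.02 log2 units over the 13 probe sets and 0.04 over all probe sets.

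The 2 proteases had the largest differences, both higher in promiscuous females. The cross means of psh with monogamous and then promiscuous males were 7.04 and 7.12 in Mono1 females, 7.08 and 7.19 in Mono2, 7.03 and 7.14 in Mono3, and 7.12 and 7.17 in Mono4. In promiscuous females they were 7.34 and 7.37 in Prom1, 7.17 and 7.09 in Prom2, 7.37 and 7.17 in Prom3, and 7.17 and 7.19 in Prom4. As means over both males, Prom1, Prom3 and Prom4 lay above all 4 monogamous populations, while Prom2, at 7.13, lay within their range of 7.08 to 7.15. The difference for psh was 0.12 (SE 0.05, 95% interval 0.01 to 0.24), with an unadjusted p of 0.0403 and an adjusted p of 0.690 in limma.

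For SPE the population means were 9.32, 9.21, 9.08 and 9.31 in Mono1 to Mono4 and 9.55, 9.42, 9.33 and 9.22 in Prom1 to Prom4. The 3 highest means were those of Prom1, Prom2 and Prom3, and Prom4 lay among the monogamous populations. The difference was 0.15 (SE 0.08, 95% interval -0.03 to 0.33; limma, adjusted p 0.735). It was 0.14 in batch 1 and 0.16 in batch 2, but 0.09 without Prom1 and 0.10 without Mono3.

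The ligand, the receptor and the genes inside the cell differed less between female regimes. The difference was -0.08 for Tl (brighter; 95% interval -0.18 to 0.03), -0.07 for cact (dimmer; -0.21 to 0.06) and -0.05 for pll (-0.22 to 0.12). For spz, tub, Myd88, cact (brighter), dl (brighter) and Dif the difference lay within 0.01 of 0 on either side. Over the 13 probe sets the bound farthest from 0 was 0.33 for SPE, which stands for a 1.26-fold difference.

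**Figure D2:**
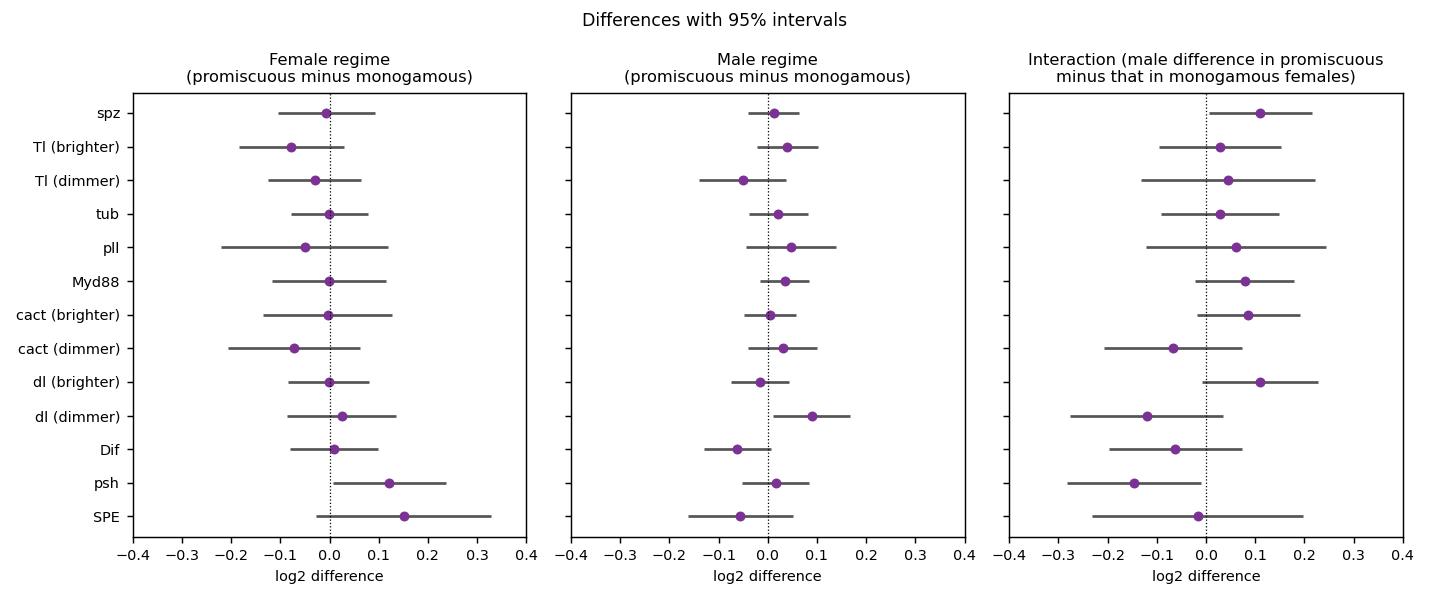
Log2 differences of the 13 Toll pathway probe sets (points) with 95% intervals (lines) for the female regime, the male regime and their interaction. The intervals exclude 0 for psh in the female regime, for dl (dimmer) in the male regime, and for spz and psh in the interaction, before adjustment for the number of probe sets tested.

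The second comparison asked whether the regime of the male changed expression in females of the same population. No Toll pathway probe set passed at an adjusted p under 0.05 in limma, as for all probe sets (0%). At an unadjusted p under 0.05 there was 1, dl (dimmer), against 1977 probe sets in all (10.5%). No Toll pathway probe set differed in the same direction in 8 of 8 female populations, which 333 probe sets in all did (1.77%). The median absolute difference was 0.03 for the Toll pathway probe sets and 0.03 for all probe sets.

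The largest male difference was that of dl (dimmer), a probe set for the transcription factor Dorsal. Its cross means with monogamous and then promiscuous males were 7.12 and 7.16 in Mono1 females, 7.04 and 7.29 in Mono2, 7.05 and 7.20 in Mono3, and 7.03 and 7.19 in Mono4. In promiscuous females they were 7.07 and 6.98 in Prom1, 7.14 and 7.32 in Prom2, 7.14 and 7.16 in Prom3, and 7.23 and 7.24 in Prom4. The value was higher with promiscuous males in 7 of 8 populations, all but Prom1. The mean difference was 0.09 (SE 0.03, 95% interval 0.01 to 0.17), with an unadjusted p of 0.0287 and an adjusted p of 0.432 in limma. The dl (brighter) probe set gave -0.02 (95% interval -0.07 to 0.04), higher in 3 of 8 populations.

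The spread behind these dl (dimmer) means was uneven. The SD of the 4 arrays was 0.43 in Mono1 and 0.34 in Mono3, against 0.04 to 0.18 in the other populations. In Mono1 the cross with monogamous males read 6.68 in batch 1 and 7.56 in batch 2, and in Mono3 it read 6.71 and 7.38. In Mono1 the SD of 4 arrays was smaller for the other transcription factor and inhibitor probe sets, at 0.16 for dl (brighter), 0.08 for Dif, 0.12 for cact (brighter) and 0.06 for cact (dimmer).

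Dif, the other NF-kappaB factor of the pathway and the one most tied to adult immunity, was lower with promiscuous males in 7 of 8 populations. Its cross means with monogamous and then promiscuous males were 5.68 and 5.63 in Mono1 females, 5.65 and 5.71 in Mono2, 5.56 and 5.54 in Mono3, and 5.68 and 5.57 in Mono4. In promiscuous females they were 5.65 and 5.59 in Prom1, 5.71 and 5.49 in Prom2, 5.72 and 5.68 in Prom3, and 5.65 and 5.60 in Prom4. The exception was Mono2. The mean difference was -0.06 (SE 0.03, 95% interval -0.13 to 0.01; limma, adjusted p 0.505), and it was -0.13 in batch 1 alone and 0.01 in batch 2 alone.

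The other male differences lay between -0.06 for SPE (95% interval -0.16 to 0.05) and 0.05 for pll (-0.04 to 0.14). The farthest bound of any interval was 0.17, for dl (dimmer), which is a 1.12-fold difference.

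The third comparison was the interaction, that is, how far the male difference seen in promiscuous females exceeded the one seen in monogamous females. A positive interaction means that expression was higher, on balance, after mating with a male of the female's own regime, and own regime and own population cannot be told apart. At an adjusted p under 0.05 in limma 0 Toll pathway probe sets and 0 of all probe sets (0%) passed. At an unadjusted p under 0.05 there were 2, spz and psh, against 1367 in all (7.28%). The median absolute interaction was 0.07 over the 13 probe sets and 0.06 over all probe sets.

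For the ligand gene spz, the male difference was -0.05, -0.06, -0.04 and -0.02 in Mono1 to Mono4 females and 0.07, 0.03, 0.13 and 0.05 in Prom1 to Prom4 females. It was thus negative in all 4 monogamous and positive in all 4 promiscuous populations, so that as a mean over batches spz was higher, in 8 of 8 populations, after mating with a male of the female's own population. This held in 8 of 8 populations in batch 1 and in 5 of 8 in batch 2, where Mono1, Prom1 and Prom2 went the other way. The inhibitor gene cact had the same pattern of batch means on its brighter probe set. There the male difference was -0.01, -0.01, -0.05 and -0.08 in Mono1 to Mono4 and 0.09, 0.03, 0.05 and 0.03 in Prom1 to Prom4, but cact (brighter) was higher with own males in 6 of 8 populations in batch 1 and in 3 of 8 in batch 2. Signs opposed in this complete way, in either orientation, occurred in 2 of the 13 Toll pathway probe sets and in 214 probe sets in all (1.14%).

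The sizes of these interactions were small. The interaction was 0.11 for spz (SE 0.05, 95% interval 0.01 to 0.21; limma, unadjusted p 0.0406 and adjusted p 0.685), with 0.20 in batch 1 alone and 0.02 in batch 2 alone. For cact (brighter) it was 0.09 (SE 0.05, 95% interval -0.02 to 0.19; limma, adjusted p 0.714), with 0.19 in batch 1 and -0.02 in batch 2. All 4 groups overlapped for both genes: the spz medians were 9.52 in M.M, 9.50 in M.P, 9.48 in P.M and 9.50 in P.P, within group SDs of 0.09 to 0.11.

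The brighter probe set of dl came close to that pattern. Its male difference was -0.07, -0.06, -0.08 and -0.08 in Mono1 to Mono4, and 0.13, -0.04, 0.06 and 0.00 in Prom1 to Prom4. Prom2 was the exception, and the interaction was 0.11 (SE 0.05, 95% interval -0.01 to 0.23; limma, adjusted p 0.688), with 0.25 in batch 1 and -0.03 in batch 2. The dimmer probe sets of the same genes had interactions of the opposite sign, at -0.12 for dl (95% interval -0.28 to 0.03) and -0.07 for cact (-0.21 to 0.07).

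The protease gene psh ran the other way from spz. Its male difference was 0.08, 0.11, 0.12 and 0.04 in Mono1 to Mono4 and 0.03, -0.08, -0.20 and 0.03 in Prom1 to Prom4. As means over batches, psh was higher with promiscuous males in 4 of 4 monogamous populations, while the promiscuous populations were split, with Prom3 lowest. Within batches, it was higher in 3 of 4 monogamous populations in batch 1 and in 1 of 4, Mono3, in batch 2. The interaction was -0.15 (SE 0.06, 95% interval -0.28 to -0.01; limma, unadjusted p 0.0379 and adjusted p 0.683), with -0.28 in batch 1 alone and -0.02 in batch 2 alone. The bound of -0.28 is the farthest of the 13 and stands for a 1.22-fold difference.

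**Figure D3:**
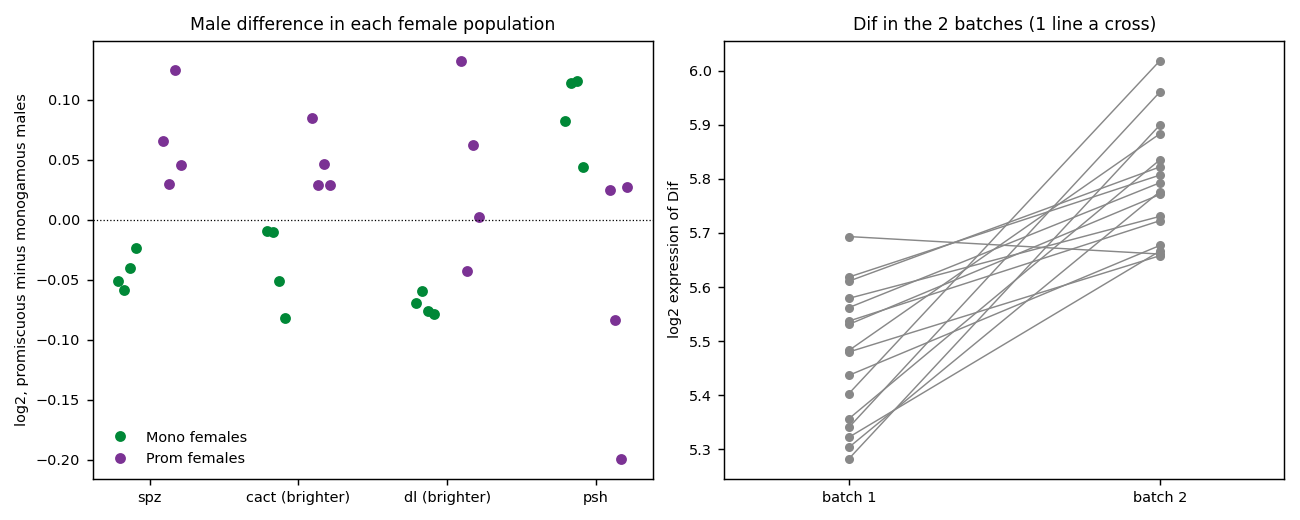
Left, the male difference (promiscuous minus monogamous males, log2, mean of both batches) in each of the 8 female populations for 4 probe sets, 1 point a population; spz and cact (brighter) lie below 0 in all 4 Mono and above 0 in all 4 Prom populations. Right, Dif in batch 1 and batch 2 (log2), with 1 line for each of the 16 crosses, 15 of which rise.

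The 4 populations of a regime were then compared with each other, with the 32 arrays in a fit of the 16 crosses and batch. Here 1 of the 13 Toll pathway probe sets passed at an adjusted p under 0.05 in limma, that of pll, against 2572 of all probe sets (13.7%). With 1 probe set a gene, which is the brightest, 1 of 10 Toll pathway genes passed against 2083 of 11982 named genes (17.4%). At an unadjusted p under 0.05 there were 3 probe sets, those of pll, Myd88 and cact (brighter), against 4872 in all (26%). The median range of the 8 population means was 0.22 over the 13 probe sets and 0.21 over all probe sets. Ranges here and below are over all 8 populations. The p of this test covers differences within each regime only, so it does not test a range that crosses the regimes.

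The kinase gene pll was highest in Mono1 and lowest in Mono3. The 4 arrays of Mono1 read 8.80, 8.82, 8.99 and 8.99, those of Mono2 8.64, 8.65, 8.68 and 8.74, those of Mono3 8.45, 8.49, 8.54 and 8.62, and those of Mono4 8.64, 8.66, 8.69 and 8.88. In the promiscuous populations the arrays read 8.49, 8.78, 8.78 and 8.92 in Prom1, 8.55, 8.59, 8.60 and 8.66 in Prom2, 8.55, 8.59, 8.76 and 8.83 in Prom3, and 8.52, 8.58, 8.59 and 8.67 in Prom4. Every Mono1 array lay above every array of Mono2, Mono3, Prom2 and Prom4, while Mono1 overlapped Mono4, Prom1 and Prom3. The arrays of Mono3 lay below all those of Mono1, Mono2 and Mono4.

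In order, the pll population means were 8.90 in Mono1 (SD 0.11, n = 4 arrays), 8.74 in Prom1 (0.18), 8.72 in Mono4 (0.11), 8.68 in Prom3 (0.13), 8.68 in Mono2 (0.05), 8.60 in Prom2 (0.04), 8.59 in Prom4 (0.06) and 8.53 in Mono3 (0.07). From Prom1 down to Mono2, and from Prom2 to Prom4, neighbours in this order differed by less than their SDs. The range of 0.38 between Mono1 and Mono3 corresponds to 1.30-fold (limma, F = 7.78, adjusted p 0.00356). Mono1 was highest and Mono3 lowest among the 8 in both batches. The 3' to 5' gap of eIF-4a was smallest in Mono1, at 2.43. For actin it was smallest in Prom1 (2.29, with 2.30 in Mono1), and for GAPDH in Prom4 (1.29, with 1.31 in Mono1). Mono3 had the largest gap for eIF-4a (2.77), actin (2.61) and GAPDH (1.41). SPE was also lowest in Mono3 as a mean over batches and in batch 1, but in batch 2 Mono4 was lowest, at 9.06 against 9.17 in Mono3. The part of RNA quality in the pll values, and in those of SPE, was not tested.

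The pll call rested on the monogamous populations. Among them alone the adjusted p was 0.0109, and among the promiscuous populations alone it was 0.401 (limma). The difference between the regimes in how far their populations spread was not tested. Without Mono1 the adjusted p was 0.0974 and without Mono3 it was 0.0680, and with each cross reduced to the mean of its 2 arrays it was 0.104 (limma). In that last fit cact (brighter) passed instead, with an adjusted p of 0.0342.

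The male difference of pll also varied in direction between populations. As a mean over batches it was 0.21 in Prom1 and 0.22 in Prom3, and -0.08 in both Mono4 and Prom4. In batch 1 and then batch 2 it was 0.42 and 0.003 in Prom1, and 0.17 and 0.28 in Prom3. In Mono4 it was 0.06 and -0.22, and in Prom4 -0.15 and -0.02. In Prom3 both arrays with promiscuous males (8.76 and 8.83) lay above both with monogamous males (8.59 and 8.55). A male difference within a single population was not tested.

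**Figure D4:**
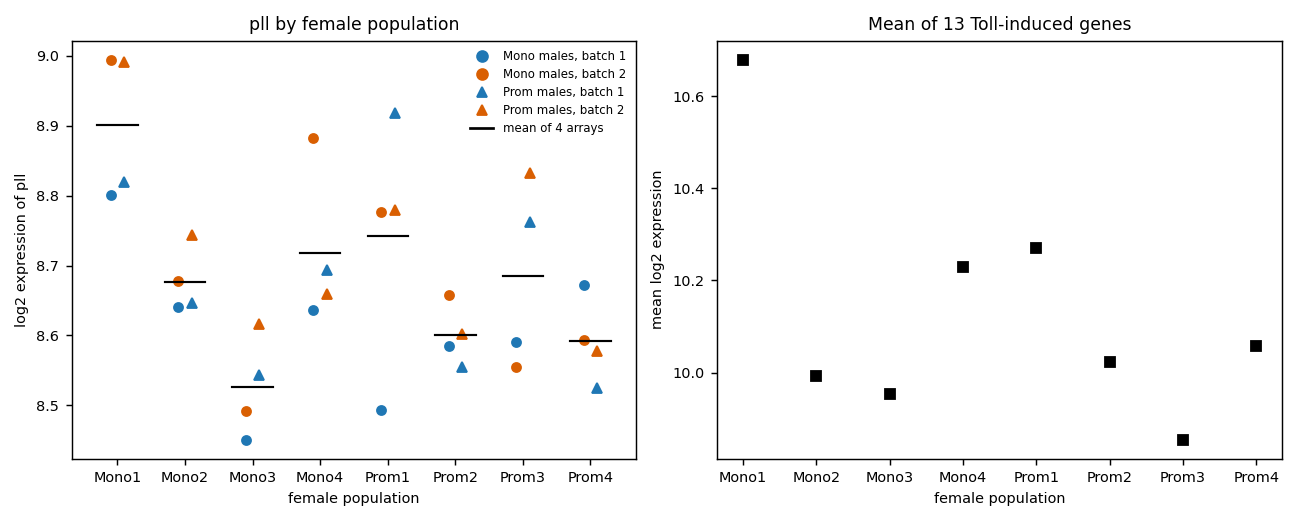
Left, log2 expression of pll on each array by female population, with symbols for male regime, colours for batch and lines for the mean of 4 arrays; Mono1 is highest at 8.90 and Mono3 lowest at 8.53. Right, the mean log2 expression of 13 genes induced by Toll signalling in the same populations, highest in Mono1 at 10.7 as a mean of both batches.

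Among the other members, Myd88, the adaptor that binds the receptor, had population means from 8.08 in Mono1 to 8.30 in Mono4 (limma, adjusted p 0.0753). Mono1, which was highest for pll, was lowest for Myd88 as a mean over batches and in batch 1. In batch 2 Prom4 was lowest, at 8.12 against 8.14 in Mono1. In both batches Mono4 was highest, with 8.30 each time. When only probe sets with a mean of at least 6 were tested, the adjusted p for Myd88 was 0.0250.

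The range of SPE was wider than that of pll, at 0.47 from Mono3 to Prom1 (1.39-fold), but it crosses the regimes. The arrays of SPE varied more within a cross, with a residual SD of 0.19 against 0.08. Within regimes its populations did not differ (limma, adjusted p 0.300). Within the promiscuous populations alone, the adjusted p was 0.0780 for SPE, 0.0813 for psh and 0.0738 for dl (dimmer) in limma. As means over batches, Prom1 was highest of the 8 populations for psh, SPE, spz and dl (brighter), and lowest for dl (dimmer). In batch 1 this held for psh only, since Mono4 was highest for SPE, Mono2 for spz and dl (brighter), and Mono1 lowest for dl (dimmer). Apart from pll and SPE, the ranges lay between 0.11 for tub and 0.28 for psh.

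**Figure D5:**
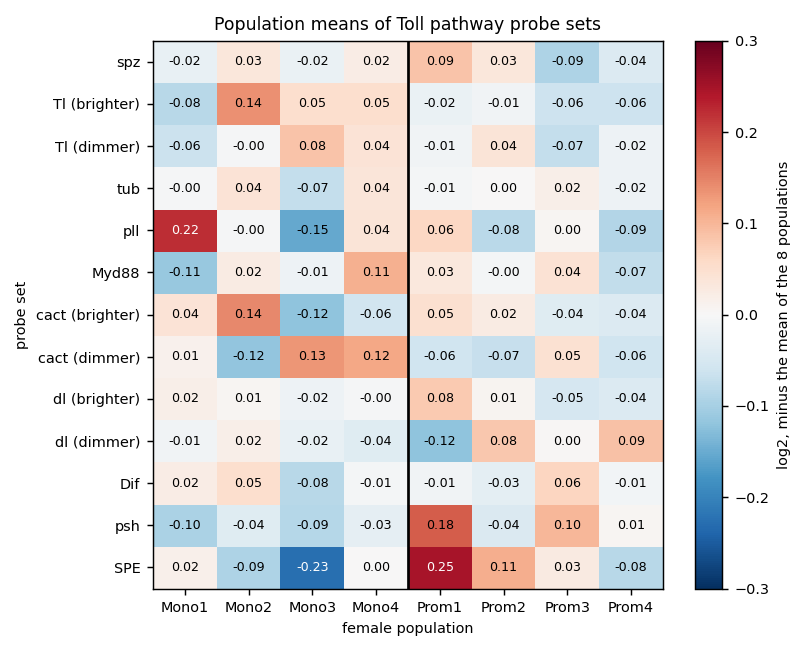
Population means of the 13 Toll pathway probe sets (rows) in the 8 female populations (columns), as log2 differences from the mean of the 8, written in each cell and coloured from -0.3 (blue) to 0.3 (red); the line separates the regimes. SPE in Prom1 and pll in Mono1 stand highest, and SPE and pll in Mono3 lowest.

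The pathway genes did not move as a block across crosses. Over the 16 cross means, the correlation between probe sets had a median of 0.04 over 78 pairs and ran from -0.75 between the probe sets of cact to 0.80 between spz and dl (brighter). These values describe crosses that share females, batches and normalization. For 5 pairs of partners in the pathway, correlations over the 8 population means were tested. The highest was that of the proteases psh and SPE (r = 0.67, exact permutation p = 0.0721, adjusted over 5 pairs 0.348; rho = 0.43, exact permutation p = 0.299, adjusted 0.487), and it was 0.15 without Prom1 and Prom3. For spz and Tl (brighter), r was 0.45, for tub and pll 0.43, for dl and cact (both brighter) 0.49, and for dl (brighter) and Dif -0.16, and none passed.

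The probe sets of cact ran against each other. Their population means were 11.32 and 8.23 in Mono1, 11.43 and 8.10 in Mono2, 11.16 and 8.35 in Mono3, and 11.23 and 8.34 in Mono4, for the brighter and the dimmer. In the promiscuous populations they were 11.33 and 8.16, 11.31 and 8.15, 11.24 and 8.26, and 11.24 and 8.16. The brighter was highest and the dimmer lowest in Mono2, and the reverse held in Mono3. The correlation was r = -0.81 (exact permutation p = 0.0113, two-sided, adjusted over 3 genes 0.0338) and rho = -0.74 (exact permutation p = 0.0458, adjusted 0.0688; n = 8 populations). It was -0.61 in batch 1 and -0.23 in batch 2. Without Mono2 and Mono3 it was weaker, at -0.56. Those populations were left out because they lay farthest from the median of the brighter probe set, so this does not show how far the correlation rests on them.

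For the other genes with a pair of probe sets, r was 0.59 for Tl (exact permutation p = 0.120, adjusted 0.120) and -0.66 for dl (exact permutation p = 0.0845, adjusted 0.120). Tl had rho = 0.83 (exact permutation p = 0.0154, adjusted 0.0461), and its r was 0.34 in batch 1 and 0.32 in batch 2. Its dimmer probe set read only 3.79 to 4.32, little above the male marker means of 3.79 to 3.86. Neither probe set of cact or dl can be read as standing for the whole gene. The transcripts each of them detects were not identified here.

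The widest difference of Dif was the one between batches. Its 16 crosses lay between 5.28 and 5.69 in batch 1 and between 5.66 and 6.02 in batch 2, and it was higher in batch 2 in 15 of 16 crosses. The difference was 0.32 (SE 0.05, 95% interval 0.23 to 0.42; limma, adjusted p 8.07e-05). It was the 1 Toll pathway probe set of 13 that passed, against 3717 of all probe sets (19.8%). The 3' to 5' gap of the control transcripts given above moved with the same batches, and its part in the Dif difference was not tested.

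The next largest batch differences were 0.13 for dl (dimmer), -0.12 for cact (dimmer) and 0.10 for dl (brighter), the last with a limma adjusted p of 0.0513. These probe sets were higher in batch 2 in 7, 5 and 12 of 16 crosses. The female regime difference of dl (dimmer) was 0.22 in batch 1 and -0.17 in batch 2. Each cross had 1 array in each batch, so the regime comparisons were balanced for batch.

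Other genes of the pathway were read with the same fits, with 1 probe set a gene, and none passed for the female regime, the male regime or the interaction in limma. Among populations of a regime, 2083 of 11982 named genes passed (17.4%), and this share is set beside each list. For these genes too, lowest and highest means are taken over both regimes, and the p is for differences within regimes only. Of 8 immune sensors, proteases and related genes upstream of spz, 2 differed among populations of a regime (25%). These were sphe, a serine protease homologue, from 8.07 in Mono4 to 8.55 in Mono1 (adjusted p 0.0350), and GNBP3, a sensor of fungal glucans, highest in Mono1 at 7.36 and lowest in Mono4, a span of 0.36 (adjusted p 0.00589; limma). Among 5 other ligands of the Spätzle family none passed that test, and spz6 differed by -0.13 between batch 2 and batch 1 (limma, adjusted p 0.0459).

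The 8 genes of the maternal dorsal group act in the follicle cells and egg on the activation of Spätzle in the embryo. Of these, 2 differed among populations (25%, against 17.4% of all named genes). The sulphotransferase gene pip, which sets the ventral side from the follicle cells, ranged from 6.17 in Prom4 to 7.62 in Mono2, a span of 1.45. That span crosses the regimes, and the female regime difference of pip was -0.65 (limma, adjusted p 0.712). Within regimes its populations differed (limma, adjusted p 5.31e-06). The span of pip was wider than that of any of the 13 Toll pathway probe sets. The gene wbl, whose product Pipe needs, ranged from 8.42 in Prom4 to 8.82 in Prom1 (limma, adjusted p 0.0360), and the protease gene gd was higher in batch 2 by 0.23 (adjusted p 0.00333).

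Among 6 other Toll receptors, 2 passed (33.3%, against 17.4% of all named genes). Tollo ranged from 8.69 in Mono1 to 9.19 in Prom4 and 18w from 8.96 in Mono4 to 9.33 in Mono3 (limma, adjusted p 0.00245 and 0.0173). Of 10 regulators of the pathway 3 passed (30%, beside the same 17.4%). Gprk2, a kinase needed for full Toll signalling, had the widest range, from 7.29 in Mono2 to 8.63 in Prom3 (limma, adjusted p 1.85e-07). Deaf1, a transcriptional regulator of immune genes, ranged from 5.65 in Prom3 to 6.16 in Mono4, and the adaptor gene Traf6 from 8.80 in Prom4 to 9.09 in Mono3 (limma, adjusted p 0.00201 and 0.0459). In batch 2 cactin, which acts with Cactus, was higher by 0.15 and Traf6 by 0.14 (limma, adjusted p 0.000564 and 0.000318).

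Downstream, 13 genes of the 31 listed as induced by Toll signalling in infection were measured, among them the antifungal peptide gene Drs and the Bomanin genes. All 13 had lower means in promiscuous than in monogamous females, against 5646 of 11982 named genes. The median difference was -0.15, against 0.00 over all named genes. With promiscuous males 12 of 13 were lower, against 5566 of 11982, with a median of -0.22 against 0.00. The 13 genes were read on the same arrays, so these are not counts of independent observations. Without Mono1, 9 of 13 were lower in promiscuous females, with a median of -0.05, and 12 of 13 were lower with promiscuous males, with a median of -0.12. None passed either test (limma). Among populations 3 of 13 passed (23.1%, against 17.4% of all named genes). These were Def, an antibacterial peptide gene, from 7.80 in Mono2 to 9.14 in Mono4, BomS6 from 9.71 in Prom3 to 10.70 in Mono1, and BomS4 from 8.89 in Prom3 to 9.40 in Mono4 (limma, adjusted p 0.00285, 0.0220 and 0.0109). Def and IM33 were higher in batch 2, by 0.35 and 0.19 (limma, adjusted p 0.0292 and 0.0173).

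The mean of these 13 target genes over both batches was 10.7 in Mono1, which was also highest for pll, and between 9.85 and 10.3 in the other populations. The Mono1 peak of the targets came from batch 2, at 11.2. In batch 1 Mono1 stood at 10.1, below Mono4 at 10.5, Mono2 at 10.2 and Prom4 at 10.2. Over the 8 population means, pll and the target mean had r = 0.84 (exact permutation p = 0.0150, adjusted over 13 probe sets 0.194) and rho = 0.67 (exact permutation p = 0.0831, adjusted 0.540). Within batches r was 0.40 in batch 1 and 0.77 in batch 2. Without Mono1 and Mono3, the populations farthest from the median of pll, it was weaker, at 0.47. That choice of populations does not show how far the correlation rests on them. For the other 12 probe sets r lay between -0.44 and 0.53.

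Of 7 embryonic targets of Dorsal 1 differed among populations (14.3%, against 17.4% of all named genes). It was ind, from 3.49 in Prom1 to 3.75 in Prom3 (limma, adjusted p 0.0250). These values lie below the male marker means of 3.79 to 3.86, and no background call was held. In the Imd pathway, the other NF-kappaB pathway of fly immunity, 4 of 10 genes passed among populations (40%, against 17.4% of all named genes). They were IKKbeta from 7.96 in Prom4 to 8.59 in Mono4, Fadd from 7.94 in Prom2 to 8.41 in Mono4, the factor Rel from 8.92 in Mono3 to 9.32 in Mono1, and imd from 6.54 in Prom1 to 6.89 in Mono1. Their adjusted p in limma were 0.000136, 0.00462, 0.0459 and 0.00710. In batch 2 IKKbeta was higher by 0.22, imd by 0.19 and Fadd by 0.13 (limma, adjusted p 0.00181, 0.00149 and 0.0328). The difference between the pathways in the share of genes that passed was not tested.

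Several Toll pathway transcripts are loaded into eggs, so female germline genes were set beside them. The mean of 5 germline marker genes lay between 10.4 and 10.5 in the 8 populations. Its correlation with Tl (brighter) was r = 0.82 (exact permutation p = 0.0123, adjusted over 13 probe sets 0.160; rho = 0.76, exact permutation p = 0.0368, adjusted 0.478). That r was 0.95 in batch 1, 0.68 in batch 2 and 0.67 without Mono1 and Mono2. For pll it was -0.60 and for SPE -0.66 (exact permutation p = 0.114 and 0.0726, adjusted 0.375 and 0.375). The mean of 6 haemocyte markers lay between 6.46 and 6.58, that of 4 fat body markers between 8.93 and 9.30, and that of 5 follicle cell markers between 12.4 and 12.9, with Mono3 lowest. These means hide single markers that differed among populations. In the fat body list Lsp2 ranged from 12.14 in Mono4 to 13.33 in Mono1 and Fbp1 from 4.71 in Prom4 to 5.62 in Prom3 (limma, adjusted p 4.85e-05 and 0.00679). Fbp2 and Yp1 did not pass. Of the haemocyte markers srp passed (limma, adjusted p 0.0391). The part of tissue content in any of these levels was not tested.

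The genes with the most similar pattern over the 16 cross means, each array first centred on its batch, were looked up among 11982 named genes for 4 members, as a description. For pll these were Ufd4 (r = 0.92), MESK2 (0.89) and MICU3 (0.88). For psh they were Manf (0.86), CG4210 (0.83) and Afg3l2 (0.81), and for dl (dimmer) CG33263 (0.81), Alk (0.80) and CG3556 (0.80). For Dif they were lncRNA:CR43917 (0.80), CG16956 (0.80) and Cht9 (0.77). None of the 12 is a Toll pathway gene in the lists used here.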

How the data were processed

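Gene expression was measured in whole females on 32 arrays in 4 groups of 8. Each array has a log2 value for every probe set in the deposited table. Per the submitters' processing notes these were made with RMA and affy (no version given). A genome build was not used here. RMA puts all arrays on a shared distribution, so a change common to most transcripts would not be seen. No background call was held per probe set, so low signals were left in, and precision is limited by the number of arrays. Array medians lay between 5.41 and 5.50.

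Of 18952 probe sets, 183 array controls were left out. Probe sets were named from the platform annotation, which gives 1 gene for 13647 probe sets, several for 402 and none for 4720; all 10 member symbols matched the table of RefSeq genes. For pathway genes with more than 1 probe set, the brightest was used. Members and gene lists were chosen with earlier results of these data known.

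Moderated two-sided tests were run in limma 3.58.1 (R 4.3.3) and adjusted by Benjamini-Hochberg over all 18769 probe sets, at a threshold of 0.05. The female regime was tested on 8 population means of 4 arrays. The male regime and the interaction were tested on 16 cross means with female population as a block, and only 4 pairs of male populations stand behind the 8 male differences. Populations within a regime and batch were tested on the 32 arrays in a model of batch and the 16 crosses. The labels call the 2 arrays of a cross biological replicates but do not say how many flies each held, and the effects of females and males of the same number were not told apart. Correlations over populations used exact permutation tests, two-sided. Those between probe sets of 1 gene, with Toll-induced genes and with germline markers were added after seeing the data, as were the Toll-induced genes without each population and the male differences by batch. Each fit was first tested on simulated data. How often differences as small as those of the Toll pathway probe sets would be detected was not estimated, so that check does not bear on the comparisons in which none passed. Alternatives covered the normalization, a filter on low values, batches taken singly, the unit of replication, the empirical Bayes prior and leaving out each population.

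Every member was described, each probe set apart. Those passing a test, filled up to 4 by the lowest p in the female, male and population tests, were given in every cross. For each pathway list, up to 5 genes that passed a comparison were named, largest first, or otherwise up to 3 by lowest p. For each member given in full, the 3 genes with the highest r over the cross means were named.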

Additional observations from a re-analysis of the deposited data

Results flagged for a closer look

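Dixon's test at the 95% level was applied to 78 groups, namely the arrays of each group and the population means of each regime for the 13 probe sets, and it singled out 3, or 3.85%. Chance alone gives about 1 in 20. In M.P, the Tl (brighter) value of Mono1 females with Prom1 males in batch 1 was 11.06, and the nearest of the other 7 arrays was 11.26. In M.M, the tub value of Mono3 females with Mono3 males in batch 1 was 9.46, and the nearest was 9.63. Among the promiscuous population means of cact (dimmer), Prom3 stood at 8.26 and the nearest at 8.16.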

How the results depend on the processing

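No Toll pathway probe set passed for the female regime, the male regime or the interaction under any alternative tried. Over all probe sets, the count for the female regime went from 0 to 127 with arrays as units and population as a random block, and to 515 with the 32 arrays taken as independent, and that for the interaction to 1 with an intensity trend. The male difference of Dif turned to 0.0071 in batch 2 alone, and the interactions of cact (brighter) and dl (brighter) to -0.0228 and -0.0314. Among populations of a regime, the 1 Toll pathway probe set called (pll) became 2 with a mean of at least 6, 0 in the promiscuous populations alone, a different 1 (cact, brighter) with cross means, and 0 to 1 when each population was left out. All probe sets called went from 2572 to 1444 in the monogamous and 1292 in the promiscuous populations alone, comparisons of fewer populations that were added after seeing the data. The count for batch, with alternatives also added after seeing the data, went from 1 to 2 with cyclic loess, and lay between 1 and 2 when each population was left out. The second was cact (dimmer) with loess and dl (brighter) without Mono3 or Prom4. With a mean of at least 6, which leaves Dif out, the 1 called was dl (brighter) (limma, adjusted p 0.0288). Same-numbered populations deviated together with correlations of 0.13, 0.07, 0.19 and 0.02, so the numbers were not taken to pair them. With population number as a replicate block, 0 probe sets were called for the female regime and 0 for the male regime. Cyclic loess left the median of all probe sets within 0.01 of 0. Limits are the 4 populations a regime, a design of mated females only, and probe sets whose transcripts are not identified here. The cause of these changes was not tested.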
